A study of Rattus norvegicus with 12 samples.

Results

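The cAMP branch of adrenergic signaling was followed from the enzymes that make cAMP to the scaffolds that position its kinase, through 10 genes: the adenylate cyclases Adcy5 and Adcy6, the protein kinase A (PKA) catalytic subunits Prkaca and Prkacb, the PKA regulatory subunits Prkar1a, Prkar2a and Prkar2b, and the A-kinase anchoring proteins (AKAPs) Akap1, Akap2 and Akap6. Every transcript row carrying one of these gene names was taken, which gave 12 of the 18752 rows in the tables and 10 of the 17301 gene names, because Adcy6 and Akap2 had 2 transcripts each. Adult rat ventricular myocytes (ARVMs), isolated from male Sprague-Dawley rats, were transduced at a multiplicity of infection of 50 with Ad-GFP, an adenovirus carrying enhanced green fluorescent protein, or with Ad-h-NR4A2, an adenovirus carrying the human NR4A2 cDNA behind the constitutive CMV promoter. RNA was taken 48 h later from 6 samples per group, numbered 24 to 29 in each. NR4A2 is an orphan nuclear receptor of the NR4A subgroup, and the comparison asks how ARVM transcripts differ once it is raised. There was no untransduced group, so the control cells carried a virus as well.

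Adenylate cyclases in the sarcolemma convert ATP to cAMP when the stimulatory G protein is active, and Adcy5 and Adcy6 are the isoforms best known in ventricular myocytes. PKA is held inactive as a complex of regulatory and catalytic subunits. cAMP binds the regulatory subunits, frees the catalytic subunits and lets them phosphorylate calcium-handling and contractile proteins. AKAPs bind the regulatory subunits and keep the kinase near particular organelles and substrates.

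The values are FPKM, fragments scaled by transcript length and by the mapped fragments of the sample, so levels can be compared between genes. The steps between low values implied 18800000 to 28000000 fragments per sample, and Nr4a2, the targeted gene, lay at 0.626 to 1.40 FPKM in the Ad-GFP samples and at 445 to 592 FPKM in the Ad-h-NR4A2 samples; fragments of the human cDNA that align to rat Nr4a2 cannot be told apart from the rat transcript. Cardiomyocyte marker transcripts summed to 17689 to 22842 FPKM in Ad-GFP and 15658 to 19261 FPKM in Ad-h-NR4A2 samples, and 5 of their 7 rows fell. Fibroblast markers summed to 9.04 to 30.1 and 5.80 to 26.4 FPKM, smooth muscle markers to 8.15 to 21.2 and 7.33 to 17.4 FPKM, endothelial markers to 5.47 to 17.1 and 4.39 to 16.2 FPKM, and adipocyte markers to 1.73 to 3.60 and 1.12 to 3.18 FPKM. Macrophage and leukocyte markers summed to 6.04 to 17.2 and 37.0 to 44.5 FPKM, a gap carried by Csf1r, the receptor for macrophage colony-stimulating factor, at 10.1 against 40.2 FPKM, whereas Cd68 averaged 0.463 and 0.482 FPKM. What part these shifts play in the results below was not tested. In bulk RNA, fewer cells of a type and less RNA per cell cannot be told apart.

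All 12 transcript rows differed between the groups at an adjusted p-value below 0.05 (limma on log2(FPKM + 0.1), Benjamini-Hochberg adjustment over 11667 rows), whereas 39.1% of all rows tested did. Of the 12, 7 were higher and 5 lower, with 5 genes in each direction, against 18.5% and 20.6% of all rows. A row was called differentially expressed when its mean FPKM also differed by at least 1.5-fold. That held for 6 rows, against 14.7% of all rows. The 5 called higher were both transcripts of Adcy6, both of Akap2 and that of Prkar2b (7.72% of all rows were called higher), and the 1 called lower was Akap1 (6.95% of all rows). The 6 Ad-GFP and 6 Ad-h-NR4A2 values did not overlap in 11 of the 12 rows, against 20.6% of all rows, with Prkacb as the exception. With transcript rows summed by gene, 4 of the 10 genes were called, against 15.2% of all summed genes. The 10 genes were chosen with earlier results of these data known, and the study lists Adcy6, Akap2 and Prkar2b among its regulated genes. These counts are therefore a description and not a test of the group. The median log2 fold change was 0.36 over the 12 rows and -0.02 over all rows, and the median absolute log2 fold change was 0.57 and 0.20. With only the more abundant transcript of Adcy6 and of Akap2 kept, these medians over 10 genes were 0.08 and 0.40.

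**Figure D1:**
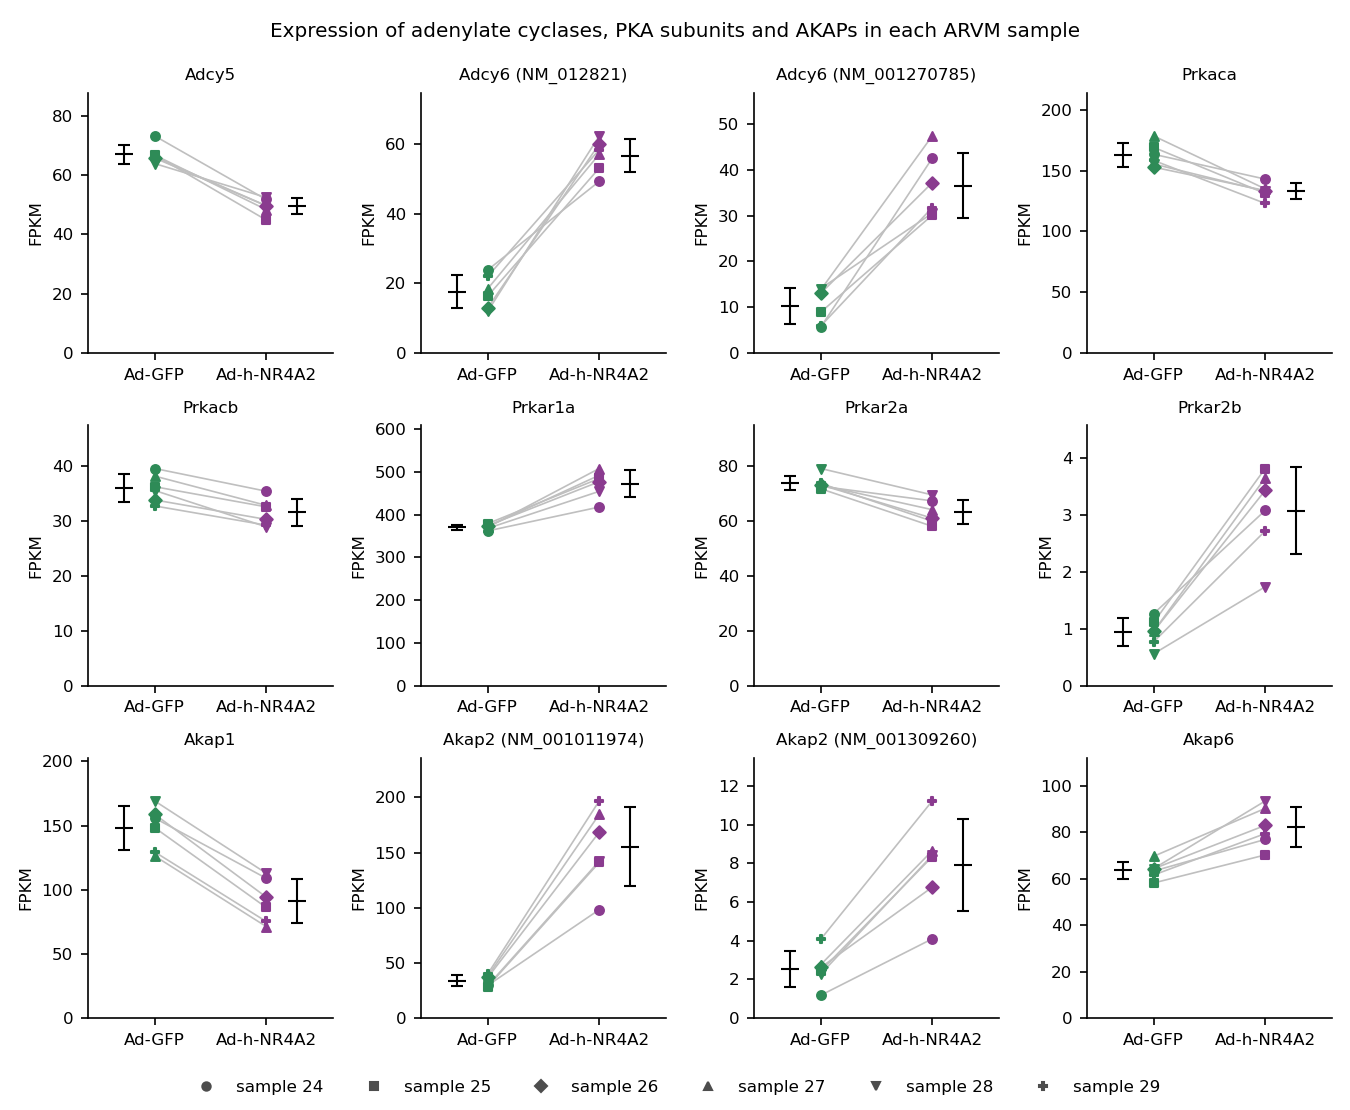
Expression of each transcript in FPKM (vertical axes, from 0) in the 6 Ad-GFP (green) and 6 Ad-h-NR4A2 (purple) samples; marker shape gives the sample number, gray lines join samples with the same number, and black bars are the mean ± SD. All 12 transcripts moved in one direction in all 6 pairs of equal sample number, and only the Prkacb values of the groups overlap.

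Adcy5 and Adcy6 moved in opposite directions. Adcy5 (NM_022600, Rn5 chr11:71787104-71933840) stood at 73.1, 66.7, 65.7, 66.7, 63.8 and 66.0 FPKM in Ad-GFP samples 24 to 29 and at 51.7, 44.8, 49.6, 48.3, 52.4 and 49.7 FPKM in Ad-h-NR4A2 samples 24 to 29. Every Ad-h-NR4A2 sample lay under every Ad-GFP sample. The mean went from 67.0 ± 3.18 to 49.4 ± 2.71 FPKM (SD, n = 6 each), a log2 fold change of -0.44 (SE 0.04, 95% confidence interval -0.53 to -0.34, limma adjusted p = 8.72e-06), which is below the 1.5-fold limit.

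Adcy6, the second of the main myocyte cyclases, is listed in the files at Rn5 chrX:114774390-114794964, whereas the GRCr8 annotation places it on chromosome 7. Its transcript NM_012821 stood at 23.9, 16.4, 13.0, 18.5, 12.0 and 22.0 FPKM in Ad-GFP samples 24 to 29 and at 49.2, 53.1, 60.0, 57.0, 62.3 and 58.3 FPKM in the Ad-h-NR4A2 samples. Its transcript NM_001270785 stood at 5.68, 8.92, 13.0, 13.8, 14.1 and 5.91 FPKM and at 42.5, 30.1, 37.2, 47.4, 30.5 and 31.7 FPKM. Both transcripts were higher in every Ad-h-NR4A2 sample, and within the Ad-GFP group the samples highest for one transcript (24 and 29) were the lowest for the other. NM_001270785 averaged 10.2 ± 3.91 and 36.5 ± 7.13 FPKM (log2 fold change 1.90, SE 0.25, limma adjusted p = 8.16e-05).

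Adcy6 varied less as a sum than as separate transcripts, most clearly in the Ad-GFP group. Cufflinks estimates this division, and the transcripts, of 5913 and 5878 bases, are listed over the same interval. The coefficient of variation in the Ad-GFP group was 27.1% for NM_012821 and 38.2% for NM_001270785, and 9.57% for their sum, and in the Ad-h-NR4A2 group 8.41%, 19.5% and 7.65%. Summed, Adcy6 ranged from 25.3 to 32.3 FPKM in Ad-GFP (mean 27.9 ± 2.67) and from 83.1 to 104 FPKM in Ad-h-NR4A2 samples (mean 93.2 ± 7.13), which is 3.35 times as high (log2 fold change 1.74, SE 0.07, limma adjusted p = 4.21e-10). Of all summed genes, 7.99% were called higher. NM_012821 made up 62.9 ± 14.6% of Adcy6 in Ad-GFP and 61.0 ± 5.55% in Ad-h-NR4A2 samples, a difference of -1.94 percentage points that was well inside the spread (exact permutation test, two-sided, p = 0.760, adjusted p = 0.961 over 1260 transcript shares).

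The order of the cyclases was thereby inverted in every sample. The ratio of Adcy6 to Adcy5 ran from 0.379 to 0.484 in Ad-GFP and from 1.77 to 2.16 in Ad-h-NR4A2 samples. Adcy6 thus supplied 27.5 to 32.6% of their joint FPKM in the controls and 63.9 to 68.3% with NR4A2. The joint level itself went from 94.9 ± 4.92 to 143 ± 8.37 FPKM. The 7 other adenylate cyclases in the tables were scarce, with a summed level of 3.56 to 7.15 FPKM in Ad-GFP and 3.95 to 5.58 FPKM in Ad-h-NR4A2 samples, and none of the 5 rows tested passed the limma threshold. No row carried the name Adcy9, so its level is not known here.

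**Figure D2:**
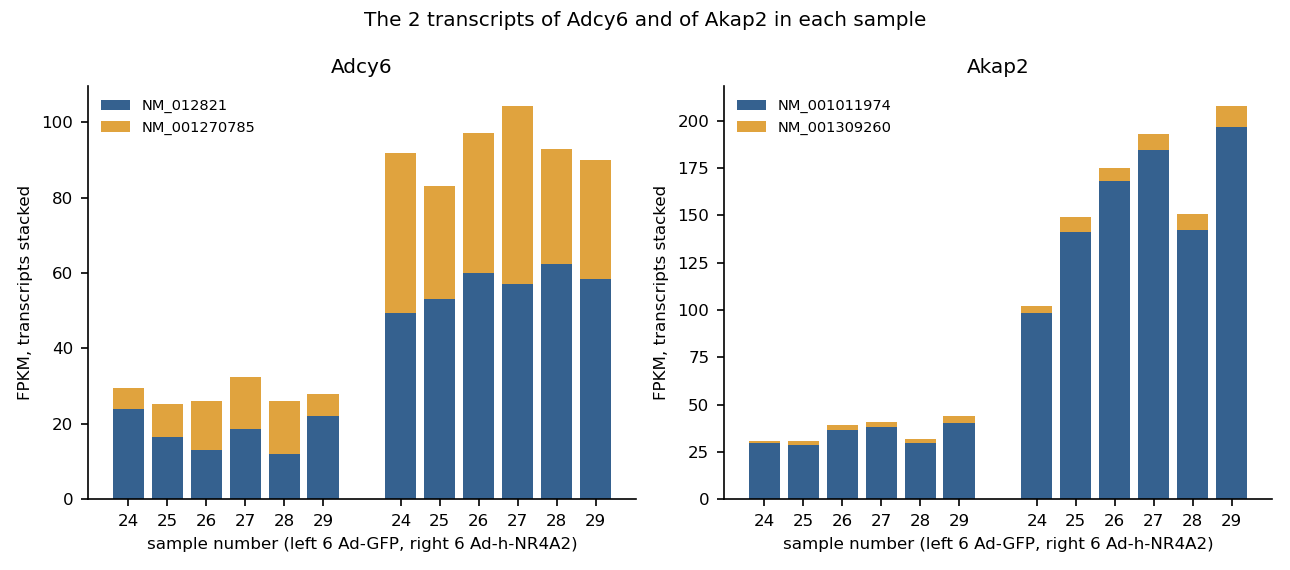
Stacked FPKM of the transcripts of Adcy6 and of Akap2 (vertical axes) in each sample (horizontal axes), with the Ad-GFP samples on the left of each panel and the Ad-h-NR4A2 samples on the right. The division of Adcy6 varies among Ad-GFP samples while its total stays between 25.3 and 32.3 FPKM, and NM_001011974 makes up most of Akap2 in all 12 samples.

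Both PKA catalytic subunits were lower with NR4A2, by amounts under the 1.5-fold limit. Prkaca (NM_001100922, Rn5 chr19:36073104-36096882), which encodes the main catalytic subunit of heart, stood at 163, 169, 153, 178, 155 and 158 FPKM in Ad-GFP samples 24 to 29 and at 143, 131, 134, 135, 133 and 123 FPKM in the Ad-h-NR4A2 samples. The groups did not overlap, and the ratio of means was 0.817 (95% confidence interval of the log2 fold change -0.39 to -0.19, limma adjusted p = 2.64e-04). Prkacb (NM_001077645, Rn5 chr2:271132406-271218985), the second catalytic isoform, stood at 39.6, 36.2, 33.8, 38.2, 35.5 and 32.7 FPKM and at 35.4, 32.6, 30.3, 32.8, 28.9 and 29.2 FPKM. Its groups overlapped, since Ad-h-NR4A2 samples 24 and 27 lay above the lowest Ad-GFP value, that of sample 29. The mean went from 36.0 ± 2.57 to 31.5 ± 2.51 FPKM (log2 fold change -0.19, SE 0.06, limma adjusted p = 0.0253). That call depended on single samples, since the adjusted p was 0.0520 to 0.0562 without any one of Ad-GFP samples 24 and 27 or Ad-h-NR4A2 samples 26, 28 and 29. With the sample number as a block, limma gave an adjusted p of 6.51e-04.

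The PKA regulatory subunits split by isoform. Prkar1a (NM_013181, Rn5 chr10:97655261-97671804), the type I subunit and the most abundant of the 10 genes, stood at 362, 379, 375, 371, 368 and 372 FPKM in Ad-GFP samples 24 to 29 and at 418, 485, 477, 508, 455 and 492 FPKM in the Ad-h-NR4A2 samples. Its Ad-GFP values were the tightest of the 12 rows, with a coefficient of variation of 1.57%, and all Ad-h-NR4A2 values were above them. The log2 fold change was 0.35 (SE 0.04, 95% confidence interval 0.25 to 0.44, limma adjusted p = 5.35e-05). Prkar2a (NM_019264, Rn5 chr8:116830971-116890072), the main type II subunit of these cells, stood at 72.6, 71.7, 73.1, 73.0, 79.1 and 73.6 FPKM and at 67.3, 58.0, 61.0, 64.1, 69.4 and 59.9 FPKM. It was lower in each Ad-h-NR4A2 sample (log2 fold change -0.22, SE 0.05, limma adjusted p = 0.00206).

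Prkar2b, the type II isoform best known from adipose tissue and brain, showed the largest fold change of the PKA subunits from the lowest level. Its transcript (NM_001030020, Rn5 chr6:59936124-60027033) stood at 1.27, 1.12, 0.957, 0.958, 0.560 and 0.772 FPKM in Ad-GFP samples 24 to 29 and at 3.08, 3.82, 3.44, 3.66, 1.74 and 2.72 FPKM in the Ad-h-NR4A2 samples. These values correspond to about 46 to 84 and 135 to 314 fragments. Sample 28 was the lowest in both groups, and its Ad-h-NR4A2 value still lay above all Ad-GFP values. The mean went from 0.939 ± 0.250 to 3.08 ± 0.767 FPKM, a ratio of 3.28 (log2 fold change 1.61, SE 0.21, 95% confidence interval 1.15 to 2.07, limma adjusted p = 8.92e-05). Even so, Prkar2b made up only 1.26% of the type II FPKM in Ad-GFP and 4.68% in Ad-h-NR4A2 samples. The adipocyte markers, whose summed ranges are given above, had 2 rows tested, Fabp4 and Adipoq, and none that passed. Adipoq averaged only 0.0907 and 0.108 FPKM, and whether these markers bear on Prkar2b was not tested.

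As levels, the regulatory subunits summed to 446 ± 5.46 FPKM in Ad-GFP and 539 ± 29.8 FPKM in Ad-h-NR4A2 samples, and the catalytic subunits to 199 ± 11.4 and 165 ± 8.52 FPKM. The ratio of regulatory to catalytic FPKM ran from 2.05 to 2.40 in Ad-GFP and from 2.74 to 3.65 in Ad-h-NR4A2 samples, with sample 24 the lowest of the latter. Prkar1a made up 83.2% of the regulatory sum in Ad-GFP and 87.6% in Ad-h-NR4A2 samples. The share of Prkacb in the catalytic sum was 18.1 ± 0.845% and 19.1 ± 0.811%. No test was made of these sums and ratios, which follow from the rows already described.

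**Figure D3:**
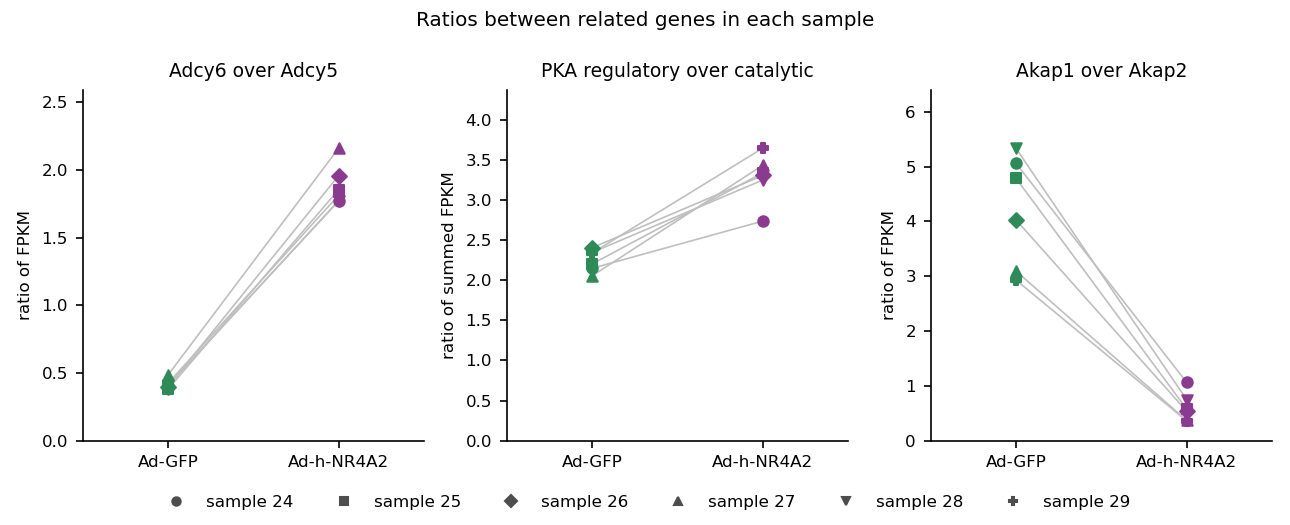
Ratios of FPKM in each sample (vertical axes, from 0) for Adcy6 over Adcy5, summed PKA regulatory over summed catalytic subunits, and Akap1 over Akap2; green is Ad-GFP, purple is Ad-h-NR4A2, and gray lines join samples with the same number. The groups do not overlap in any of the 3 ratios, and the Ad-h-NR4A2 ratio of Akap1 to Akap2 runs from 0.362 to 1.07.

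The 3 anchoring proteins differed in direction. Akap2 tethers PKA to the actin cytoskeleton and membranes, and its main transcript rose more than any other row of the 12. NM_001011974 (Rn5 chr5:79083332-79127061) stood at 29.6, 28.5, 36.8, 38.0, 29.4 and 40.1 FPKM in Ad-GFP samples 24 to 29 and at 98.2, 141, 168, 185, 142 and 197 FPKM in the Ad-h-NR4A2 samples. The lowest Ad-h-NR4A2 value, in sample 24, was more than 2-fold above the highest Ad-GFP value. The mean went from 33.7 ± 5.11 to 155 ± 35.7 FPKM, a ratio of 4.60 (log2 fold change 2.18, SE 0.16, 95% confidence interval 1.83 to 2.52, limma adjusted p = 8.41e-07).

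The second Akap2 transcript, NM_001309260, was far scarcer, at 1.18 to 4.08 FPKM (median 2.53) in Ad-GFP and 4.09 to 11.2 FPKM (median 8.38) in Ad-h-NR4A2 samples. It rose in the same direction (ratio 3.09, log2 fold change 1.61, SE 0.28, limma adjusted p = 6.98e-04). Its share of Akap2 was 6.92 ± 1.79% and 4.82 ± 0.801%, a difference that was not called after adjustment (exact permutation test, two-sided, p = 0.0303, adjusted p = 0.291). Over the 1260 shares, 4.68% passed an adjusted p of 0.05. Summed, Akap2 went from 36.3 ± 5.85 to 163 ± 37.7 FPKM (log2 fold change 2.14, SE 0.15, limma adjusted p = 1.87e-07). The GRCr8 annotation joins Akap2 with its upstream neighbor Palm2 as Pakap. The row of Palm2, looked up after the Akap2 values were seen, averaged 3.28 ± 0.615 and 2.68 ± 0.340 FPKM and did not pass (log2 fold change -0.27, SE 0.13, limma adjusted p = 0.120).

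Akap1, which anchors PKA at the outer mitochondrial membrane, was the member called lower. It (NM_053665, Rn5 chr10:73945259-73959625) stood at 156, 148, 159, 126, 169 and 129 FPKM in Ad-GFP samples 24 to 29 and at 109, 86.2, 94.3, 71.3, 113 and 75.3 FPKM in the Ad-h-NR4A2 samples. Samples 27 and 29 were the lowest in both groups and sample 28 the highest in both. The change per numbered pair was therefore narrower than the spread between samples, with log2 ratios of -0.82 to -0.52. The mean went from 148 ± 17.0 to 91.5 ± 17.1 FPKM, a ratio of 0.618 (log2 fold change -0.71, SE 0.12, 95% confidence interval -0.97 to -0.44, limma adjusted p = 6.43e-04).

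Akap6, also called mAKAP, is a scaffold of the nuclear envelope of myocytes. It (NM_022618, Rn5 chr6:83111482-83545576) stood at 63.4, 58.3, 64.4, 69.8, 64.5 and 61.7 FPKM in Ad-GFP samples 24 to 29 and at 77.0, 70.3, 83.1, 90.4, 93.6 and 79.5 FPKM in the Ad-h-NR4A2 samples. The lowest Ad-h-NR4A2 value was just above the highest Ad-GFP value, and the ratio of means, 1.29, stayed under the 1.5-fold limit (log2 fold change 0.37, SE 0.07, limma adjusted p = 0.00107). Akap1 was 2.93 to 5.34 times as abundant as Akap2 in Ad-GFP samples and 0.362 to 1.07 times as abundant in Ad-h-NR4A2 samples.

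**Figure D4:**
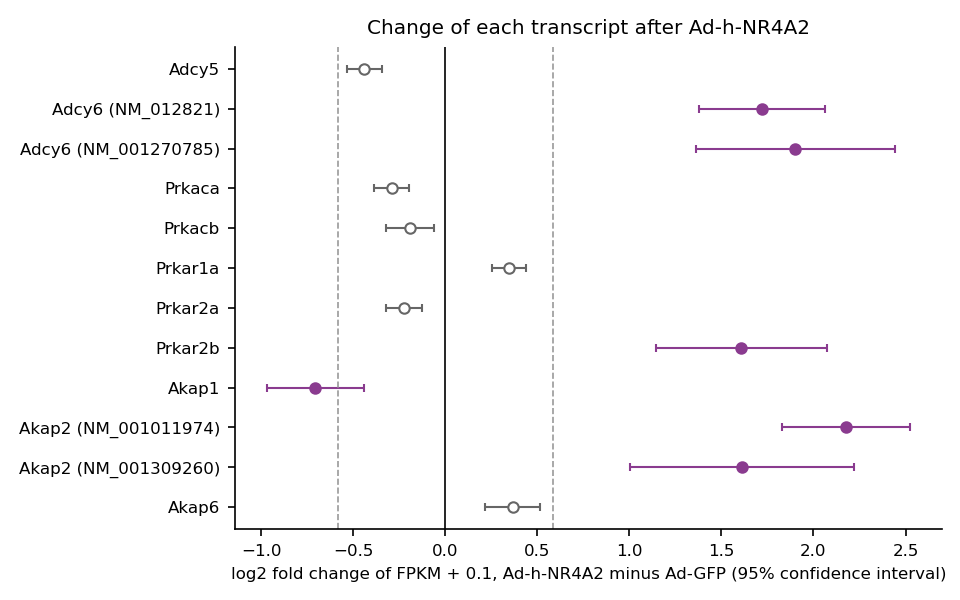
log2 fold change of FPKM + 0.1, Ad-h-NR4A2 minus Ad-GFP (horizontal axis), for each of the 12 transcripts, with 95% confidence intervals from limma; dashed lines mark 1.5-fold, filled points were called differentially expressed and open points were not. No interval reaches 0, and the intervals of the 5 transcripts called higher lie wholly beyond the 1.5-fold line.

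Across the 10 genes, the exact permutation test over all splits of 6 and 6 samples gave the smallest p it allows, 0.00216 (two-sided), for every row except Prkacb (p = 0.0130). Groups that do not overlap always give this smallest p, so the result restates the lack of overlap. The splits also took no account of the sample numbers. In Ad-GFP samples the order by level was Prkar1a, Prkaca, Akap1, Prkar2a, Adcy5, Akap6, Akap2, Prkacb, Adcy6 and Prkar2b, where the range of Adcy5 overlapped those of Prkar2a and Akap6, that of Akap2 overlapped those of Prkacb and Adcy6, and those of Prkaca and Akap1 overlapped. In Ad-h-NR4A2 samples it was Prkar1a, Akap2, Prkaca, Adcy6, Akap1, Akap6, Prkar2a, Adcy5, Prkacb and Prkar2b, where the range of Akap2 (102 to 208 FPKM) overlapped those of Prkaca, Adcy6 and Akap1, and those of Adcy6, Akap1 and Akap6 overlapped one another. By mean level Akap2 moved from rank 7 to rank 2, and Adcy6 from rank 9 to rank 4.

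Sample number 24 showed the smallest change of its 6 pairs in 7 of the 12 rows, including Akap2 NM_001011974 (a log2 ratio of 1.73, against up to 2.30) and Adcy6 NM_012821 (1.04, against up to 2.37). The other Adcy6 transcript, NM_001270785, had its largest change in that pair (2.88, against as little as 1.11). Over the whole table, pair 24 showed the smallest change in 40.2% of the 4558 rows that passed. The Nr4a2 level of Ad-h-NR4A2 sample 24 was 455 FPKM, against 445 FPKM in sample 25 and 485 to 592 FPKM in the remaining Ad-h-NR4A2 samples. Whether the Nr4a2 level bears on the size of the change was not tested. All 6 calls among the 12 rows held when any one sample was left out.

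The transcripts whose levels followed these rows most closely over the 12 samples were sought among 9302 rows with a mean FPKM of at least 1. For Adcy6 NM_012821 they were Rbfox2, Tmtc2 and Tbc1d8, with Pearson's r of 0.984, 0.975 and 0.974. For Prkar2b they were Ydjc, Rarb and Ric8a, with r of 0.980, 0.974 and 0.973. For Akap2 NM_001011974 they were Dclk1, Sptlc2 and B4galt1, with r of 0.995, 0.993 and 0.993. These correlations span both groups, share libraries and were picked as the highest of many, so they describe likeness alone.

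Promoter windows were available from RefSeq (GRCr8, 250 bases before to 50 bases after the annotated start) for 8 of the 10 genes, as 9 windows. They are shown for the genes with the largest changes among these, Akap2 (as Pakap, with its 2 annotated starts), Prkar2b and Akap1, and for Prkaca, because NR4A receptors bind the NBRE element AAAGGTCA and CREB, a PKA target, binds the CRE element TGACGTCA. Neither was found on either strand in any of the 9 windows, and they occur in 1.43% and 1.83% of 33469 rat windows. The shorter CRE half-site TGACG, contained in the full CRE, was chosen for the search afterwards. It lay in 3 of the 9 windows (those of Prkaca, Prkacb and the first Pakap start) and in 21.2% of all windows. The NBRE core AGGTCA, likewise contained in the full element and chosen afterwards, lay in 1 of the 9 (that of Akap6) and in 16.2% of all. The 250 bases upstream of each start read as follows, 5′ to 3′ on the strand of the gene, with matches to TGACG, on either strand, in capitals.
Pakap, first start, chr5:77108543-77108792, plus strand: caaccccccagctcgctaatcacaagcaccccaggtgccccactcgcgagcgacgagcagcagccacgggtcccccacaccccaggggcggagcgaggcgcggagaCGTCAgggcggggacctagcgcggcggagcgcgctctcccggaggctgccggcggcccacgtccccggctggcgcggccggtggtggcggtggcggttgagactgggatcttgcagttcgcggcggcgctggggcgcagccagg
Pakap, second start, chr5:77399706-77399955, plus strand: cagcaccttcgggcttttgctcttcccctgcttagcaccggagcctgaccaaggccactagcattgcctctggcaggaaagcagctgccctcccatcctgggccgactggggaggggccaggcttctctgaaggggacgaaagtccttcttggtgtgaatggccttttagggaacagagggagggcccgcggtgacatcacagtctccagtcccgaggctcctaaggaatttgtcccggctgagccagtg
Prkar2b, chr6:54381412-54381661, minus strand: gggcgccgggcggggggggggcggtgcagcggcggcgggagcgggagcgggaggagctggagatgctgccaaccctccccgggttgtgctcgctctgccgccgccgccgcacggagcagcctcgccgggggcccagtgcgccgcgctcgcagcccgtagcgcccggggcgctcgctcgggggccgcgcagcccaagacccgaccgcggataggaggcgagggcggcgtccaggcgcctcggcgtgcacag
Akap1, chr10:74133458-74133707, minus strand: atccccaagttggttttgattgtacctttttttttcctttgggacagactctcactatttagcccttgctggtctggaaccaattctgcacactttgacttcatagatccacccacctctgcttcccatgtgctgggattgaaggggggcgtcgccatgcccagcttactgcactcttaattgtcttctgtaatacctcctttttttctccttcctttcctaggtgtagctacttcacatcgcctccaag
Prkaca, chr19:41083190-41083439, minus strand: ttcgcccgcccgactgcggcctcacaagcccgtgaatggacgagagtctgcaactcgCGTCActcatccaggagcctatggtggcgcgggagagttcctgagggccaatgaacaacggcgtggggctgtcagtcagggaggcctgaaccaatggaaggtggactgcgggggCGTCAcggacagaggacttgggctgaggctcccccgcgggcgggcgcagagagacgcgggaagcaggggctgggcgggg
In Rn5 the Akap2 transcripts are listed from chr5:79083332, beyond the end of Palm2 (chr5:78796409-78932709). By that order along the plus strand, the first Pakap start corresponds to Palm2 and the second to Akap2. The builds differ, and the use of each start was not measured. A match of letters is not a binding site, and a missing match says nothing of binding elsewhere. The windows differ in composition, at 80.8% G and C for Prkar2b and 46.8% for Akap1.

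The rest of the pathway was read from lists of genes grouped by role and chosen with earlier results of these data known. Over 75 further genes, 91 of 96 rows could be tested, of which 13 rose, 23 fell (limma adjusted p below 0.05), 7 were called higher and 9 lower, with a median log2 fold change of -0.09. Over all rows tested, 18.5% rose, 20.6% fell, 7.72% were called higher and 6.95% lower. These shares are the background for the counts of every list below. Upstream, the G protein list had 8 rows, 2 of which rose and 2 fell. The main transcript of Gnas, the stimulatory subunit that activates both cyclases, averaged 711 and 714 FPKM (log2 fold change 0.01, limma adjusted p = 0.912). A scarce Gnas transcript, NM_001159656, averaged 0.407 and 0.741 FPKM and was called higher (log2 fold change 0.75, SE 0.15, limma adjusted p = 0.00154). Gnai1, an inhibitory subunit, averaged 1.73 ± 0.356 FPKM in Ad-GFP and 4.15 ± 1.12 FPKM in Ad-h-NR4A2 samples and was called higher (log2 fold change 1.19, SE 0.20, limma adjusted p = 6.17e-04), whereas the more abundant Gnai2 fell from 165 ± 5.60 to 143 ± 6.94 FPKM (log2 fold change -0.21).

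Among the remaining PKA subunits and the PKA inhibitors, 1 of 6 rows rose and 2 fell. The inhibitor Pkig was called lower, at 144 ± 15.8 against 85.7 ± 7.89 FPKM (log2 fold change -0.74, SE 0.08, limma adjusted p = 1.30e-05). The inhibitor Pkia rose from 383 ± 24.4 to 482 ± 30.6 FPKM (log2 fold change 0.33, limma adjusted p = 3.11e-04). The scarce regulatory subunit Prkar1b, at a mean of 1.06 FPKM in Ad-h-NR4A2 samples, fell by 0.46 on the log2 scale. Inhibitor transcripts thus did not share a direction, like the regulatory subunits.

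Of the other AKAPs, 5 of 19 rows rose and 4 fell, and 2 were called higher. Wasf1, an anchoring protein of the actin regulatory complex, went from 2.02 ± 0.512 to 3.74 ± 0.604 FPKM (log2 fold change 0.88, SE 0.16, limma adjusted p = 9.21e-04), and the other was Akap3, at 0.250 and 0.392 FPKM. Akap9, a centrosomal and channel-associated scaffold, fell by 0.54 on the log2 scale. Akap10 and Akap11 rose, with log2 fold changes of 0.29 and 0.18.

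Of the effectors of cAMP other than PKA, 1 of 6 rows rose and 1 fell. The one called, Bves, a cAMP-binding membrane protein of striated muscle, averaged 24.4 ± 2.57 FPKM in Ad-GFP and 39.7 ± 2.68 FPKM in Ad-h-NR4A2 samples (log2 fold change 0.70, SE 0.07, limma adjusted p = 9.98e-06), and the pacemaker channel Hcn2 fell by 0.43 on the log2 scale. In the list of CREB and its coactivators 0 of 15 rows rose and 1, Crtc2, fell. In the list of cAMP and CREB response genes 1 of 17 rows rose and 2 fell. Both of these lists hold the same 8 rows of Crem, none of which passed, so their counts are not separate. Nr4a1, the relative of NR4A2 that cAMP induces in many cells, was called lower, at 3.79 ± 0.663 against 1.93 ± 0.289 FPKM (log2 fold change -0.93, SE 0.14, limma adjusted p = 2.26e-04).

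Of the cardiac substrates of PKA, 8 of 10 rows fell and 1 rose, and 6 were called lower (20.6% of all rows fell and 6.95% were called lower), with a median log2 fold change of -0.63. Pln (phospholamban), the inhibitor of the sarcoplasmic calcium pump, went from 1428 ± 228 to 873 ± 200 FPKM (log2 fold change -0.72, limma adjusted p = 0.00198). Cacna1c, the pore of the L-type calcium channel, went from 18.1 ± 1.14 to 11.3 ± 1.48 FPKM (log2 fold change -0.68, limma adjusted p = 4.87e-05). The ryanodine receptor Ryr2 (NM_001191043) went from 85.7 ± 9.90 to 53.4 ± 7.56 FPKM (log2 fold change -0.68), and the hormone-sensitive lipase Lipe from 6.44 to 3.41 FPKM. Ryr2 counts with both its rows among those called lower, and its other row, NM_032078, was scarce, at 0.735 and 0.235 FPKM. Hspb6, a small heat shock protein, was the one that rose (log2 fold change 0.42, limma adjusted p = 0.00130). The cardiomyocyte markers moved the same way, with 5 of 7 rows lower and 3 called. They share both Ryr2 rows and Tnni3 with this list, and the called marker rows were those of Ryr2 and that of Myh7. Whether the 2 shifts are separate was not tested.

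Akap6 binds Ryr2 and several proteins outside the list of substrates. Of 16 tested rows of its known partners, 2 rose and 5 fell. The 2 that rose were transcripts of Pde4d, the phosphodiesterase that breaks down cAMP at this scaffold. NM_017032 went from 9.97 ± 1.00 to 21.6 ± 3.02 FPKM (log2 fold change 1.10, SE 0.10, limma adjusted p = 4.84e-06), and NM_001113334 from 1.04 ± 1.22 to 3.66 ± 1.83 FPKM (log2 fold change 2.60, SE 0.83, limma adjusted p = 0.0270). The groups overlapped for NM_001113334, at 1.02e-04 to 3.07 FPKM in Ad-GFP and 1.57 to 6.83 FPKM in Ad-h-NR4A2 samples. Its ratio of means was 3.52, and its level depends on how fragments were divided among 5 Pde4d transcripts. Ryr2, Hdac5 and Mef2d were among those that fell, Hdac5 from 37.7 ± 2.88 to 24.6 ± 2.90 FPKM.

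**Figure D5:**
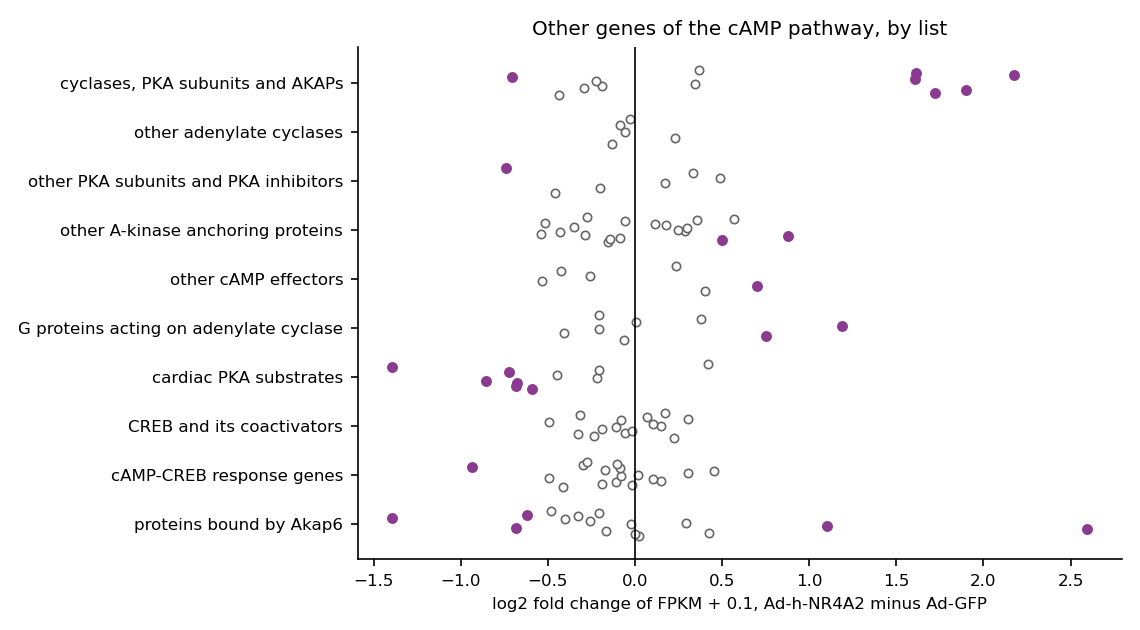
log2 fold change of FPKM + 0.1, Ad-h-NR4A2 minus Ad-GFP (horizontal axis), for every tested transcript row of the 10 genes (top) and of the other cAMP pathway lists (below), with a small vertical offset for legibility; filled points were called differentially expressed. The top group holds 6 filled points of 12, and the cardiac PKA substrates hold 6 of 10, all lower.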

How the data were processed

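Isoform tables of FPKM, with coordinates, were deposited for 12 ARVM samples, 6 per group. Per the study's methods, the libraries kept strand and were run together as one pool, and the authors aligned reads with STAR to Rn5 with RefSeq annotation and had Cufflinks estimate the FPKM of each transcript. Cufflinks divides shared fragments between transcripts, so transcripts of one gene are less certain than their sum. The study describes 6 independent experiments with different rats. The members and gene lists were chosen with earlier results of these data known.

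Rows above 0 in all 12 samples (11667 of 18752) were tested with limma 3.58.1 (R 4.3.3, eBayes with trend) on log2(FPKM + 0.1), so that fold changes of low rows are understated. p-values were adjusted (Benjamini-Hochberg) over all rows, and calls needed an adjusted p below 0.05 and means differing 1.5-fold. Single values, gene sums and shares were tested as stated. Implied fragments came from the steps of low values of transcripts of at least 800 bases, of which 99.2 to 99.9% were whole within 0.1, and are estimates from FPKM rather than counts given by the authors. Named genes were the members, the named list genes (those called with the largest changes and mean FPKM of at least 1) and examples chosen after their values were seen. Samples with equal numbers deviated together (correlations 0.274 to 0.508, each of the 12 closest to its own number). The numbers were therefore taken as pairs in the pair ratios, the lines of the figures, the sign flips and the block alternative. The main limma fits and the exact permutation tests compared unpaired groups. Python 3.11.15 with pandas 2.3.3 was used for the rest. Alternatives were other pseudocounts, filters, scalings, fold limits, summing, the block, and leaving out each sample.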

Additional observations from a re-analysis of the deposited data

Results flagged for a closer look

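Over 28 groups of 6 values, 2 held a sample standing apart from the others by Dixon's criterion, and chance alone gives about 1 in 20. Adcy5 in Ad-GFP sample 24 was 73.1 FPKM, against a group median of 66.3. Prkar2a in Ad-GFP sample 28 was 79.1 FPKM, against a group median of 73.0. Both were the highest of their group and lay on the far side from the Ad-h-NR4A2 values.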

How the results depend on the processing

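Of 262 values of the 12 rows under other settings, 257 kept their direction and their side of the threshold, 0 reversed, and 5, all of Prkacb with 1 sample left out, were no longer past it (adjusted p 0.0520 to 0.0562). A fold limit of 2 left 840 rows called over the whole table (521 higher, 319 lower) and no fold limit left 4558 (2153 higher, 2405 lower), against 1712; Akap1 alone of the 6 called rows was lost at a limit of 2. With the replicate block 1888 rows were called and no call among the 12 changed, but 0 transcript shares passed (sign-flip permutation tests; 153 at an unadjusted p below 0.05), where the smallest p of 64 sign flips is 0.03125. Leaving out 1 sample at a time gave 1584 to 1825 calls (837 to 953 higher, 747 to 872 lower), 11 to 12 of the 12 rows past the adjusted p and 6 called. The summed log2 fold change ranged from 1.71 to 1.78 for Adcy6 and from 2.07 to 2.27 for Akap2. Depth limits Prkar2b, at 46 to 84 implied fragments in Ad-GFP samples, and the transcript split limits Adcy6 and Akap2.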
